A study of Mus musculus with 3 samples.

Results

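The 40 genes described here run the cell division cycle: 25 act in late G2 and mitosis, 12 act in DNA replication (S phase), and 3 others (Stmn1, Ccnd1 and Cdkn1a) accompany or gate division. They were chosen by name and not by their values, and all 40 were among the 32285 genes measured in 3 single-cell RNA libraries of mouse hind paws. Arthritis was started by serum transfer: serum of arthritic K/BxN mice is injected into the peritoneum of recipient mice, whose joints then swell and later recover. CD45- cells, that is cells without the common leukocyte protein, were sorted at steady state (day 0) and on day 5, and CD45+CD11b+Ly6G- cells, that is myeloid cells without the neutrophil protein Ly6G, were sorted on day 9. Skin, muscles and tendons had been removed and the paws digested with collagenase IV and desoxyribonuclease I. Each group was 1 library; the strain, sex, age and number of mice are not given in the sources used here. With 1 library per group no difference was tested, day cannot be told apart from library, and each interval below (95%, exact) covers counting error only, since cells of a library are not replicates.

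A dividing cell first commits to the cycle under D-type cyclins such as cyclin D1 (Ccnd1), a step that p21 (Cdkn1a) holds back. It then copies its DNA with the MCM helicase, the sliding clamp Pcna and enzymes that make nucleotides (Rrm1, Rrm2, Tyms), and divides under Cdk1 with its B cyclins, the Aurora and Polo kinases, kinetochore proteins and spindle motors. Most mitotic transcripts are abundant only from late S phase to the end of mitosis, whereas many replication transcripts are also read at a low level in resting cells, where DNA is repaired. Proliferating fibroblasts, endothelial cells and macrophages have all been described in inflamed joints.

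The libraries held 7740, 11900 and 7795 cell barcodes with 77842586, 122224428 and 69430907 unique molecular identifiers (UMIs, each a counted RNA molecule) for day 0, day 5 and day 9. Cells were kept if they had 500 genes and 1000 UMIs or more and no more than 10% of UMIs from mitochondrial genes, which left 7368, 11172 and 5945 cells, with medians of 9802, 9303.5 and 6741 UMIs. Between 22 and 35 barcodes were shared by any pair of libraries. Cells were sorted into classes by counting marker genes, with no cell cycle gene among the markers. Fibroblast-like cells (at least 4 of 8 markers such as Pdgfra and Dcn, and no other gate passed) numbered 5487 on day 0 and 8722 on day 5, with a median of 7 markers in both. Tenocyte-like, osteoblast-like and blood endothelial-like cells followed, and macrophage-like cells were the most numerous class on day 9; the suffix is dropped below. Leukocyte markers were close to absent from the stromal fibroblasts: the 10 markers summed to 4.05 UMIs per 1000000 UMIs (CPM) in day 5 fibroblasts with few mitotic transcripts and to 3.11 CPM in those with many.

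Fibroblasts in which a mitotic programme could be read were rare at steady state and more frequent in the day 5 library. Cells with a UMI of at least 4 of the 25 mitotic genes are called mitotic-high here. They were 9 of 5487 fibroblasts on day 0, a share of 0.164% (0.0750 to 0.311%), and 85 of 8722 on day 5, a share of 0.975% (0.779 to 1.2%). The ratio of the shares was 5.94 (2.99 to 13.4), and their intervals did not overlap. These cells had more UMIs than the rest, which the rule itself favours, since a deeper cell shows 4 genes more readily. Their median was 17961 UMIs on day 0 and 30578 on day 5, against 9323.5 UMIs in day 5 fibroblasts with neither gene set at 4. With every cell thinned to 3000 UMIs, 4 of 5388 and 38 of 8443 fibroblasts were mitotic-high, with a ratio of 6.06 (2.18 to 23.4). The threshold cut through few cells: exactly 3 mitotic genes were found in 2 fibroblasts on day 0 and 20 on day 5, exactly 4 in 2 and 7, and 10 or more in 4 and 52. In day 0 tenocytes, from the same library as the day 0 fibroblasts, none of 1062 cells was mitotic-high at a median of 9641.5 UMIs, which allows a share of up to 0.282%.

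**Figure D1:**
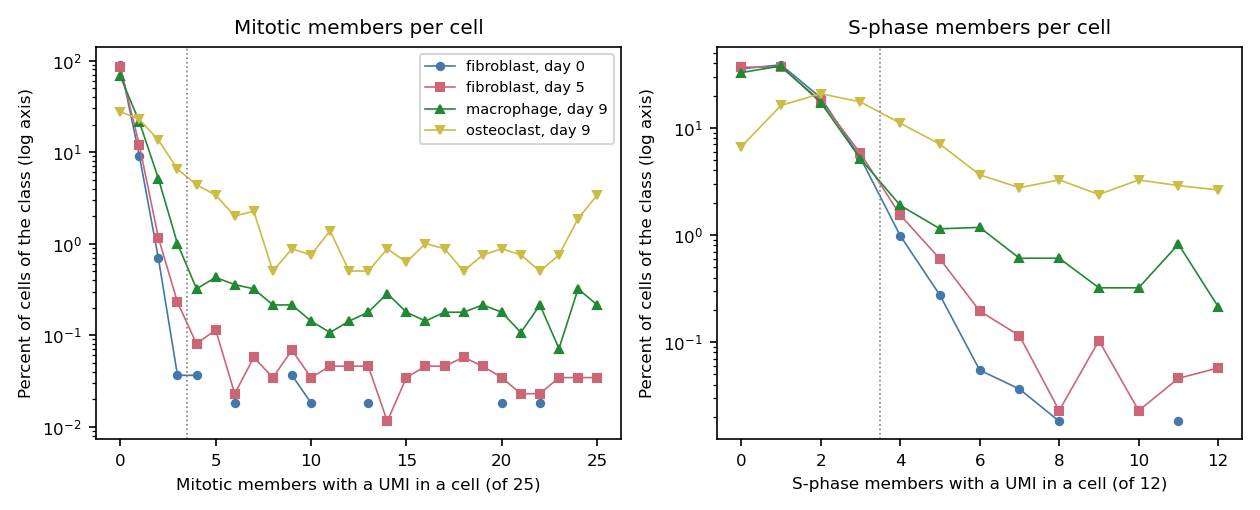
Percent of cells of a class (log axis) by the number of mitotic genes (left, of 25) or S-phase genes (right, of 12) with a UMI, in 4 classes; bins with no cell are left out and the dotted line marks the threshold of 4. In day 5 fibroblasts a flat tail runs to 25 mitotic genes, while 9 day 0 fibroblasts have 4 or more; of the osteoclasts 29.4% lie past the line.

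S-phase transcripts separated the days less. At least 4 of the 12 S-phase genes (S-phase-high below) were found in 76 day 0 fibroblasts, 1.39% (1.09 to 1.73%), and in 235 day 5 fibroblasts, 2.69% (2.36 to 3.06%), a ratio of 1.95 (1.5 to 2.55). After thinning only 3 and 10 such cells were left, too few to show a difference at this depth (ratio 2.13, 0.548 to 12). Of the day 5 mitotic-high fibroblasts, 58 were also S-phase-high and 27 were not; 177 were S-phase-high alone, with a median of 20614 UMIs. On day 0 the same counts were 7, 2 and 69.

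Most cells counted over all 40 genes reached 4 in neither the mitotic nor the S-phase genes. At least 4 of the 40 genes were found in 577 day 0 fibroblasts (10.5%) and 1085 day 5 fibroblasts (12.4%), a ratio of 1.18 (1.07 to 1.31). Of these cells 499 (86.5%) and 823 (75.9%) had fewer than 4 mitotic and fewer than 4 S-phase genes. What they held was led by Cdkn1a, found in 90.8% and 88.5% of them, and by Pcna, found in 79.2% and 76.7%. Without Stmn1, Ccnd1 and Cdkn1a the ratio was 1.87, and with every cell thinned to 3000 UMIs it was 2.20.

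Summed over all fibroblasts of a library, the mitotic genes were higher on day 5 almost as a group, and the S-phase genes mostly were not. UMIs were summed per class and scaled to CPM of the class total; the kit counts 3' ends, so values were not divided by gene length. Of the 40 genes, all of which had at least 20 UMIs, 29 were at least 1.5-fold higher on day 5, against 10.3% of all 15535 genes with at least 20 UMIs; 1 was at least 1.5-fold lower, against 7.68% of all genes. The 1.5-fold mark is a size and not a test. The 29 were 24 of the 25 mitotic genes, 4 of the 12 S-phase genes and Stmn1. The median log2 ratio was 1.85 over the mitotic genes and 0.36 over the S-phase genes, beside 0.02 over all genes. The 25 mitotic genes together went from 22.8 to 71.6 CPM, 3.15-fold (2.96 to 3.34), and the 12 S-phase genes from 116.6 to 128.4 CPM, 1.10-fold (1.07 to 1.13).

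**Figure D2:**
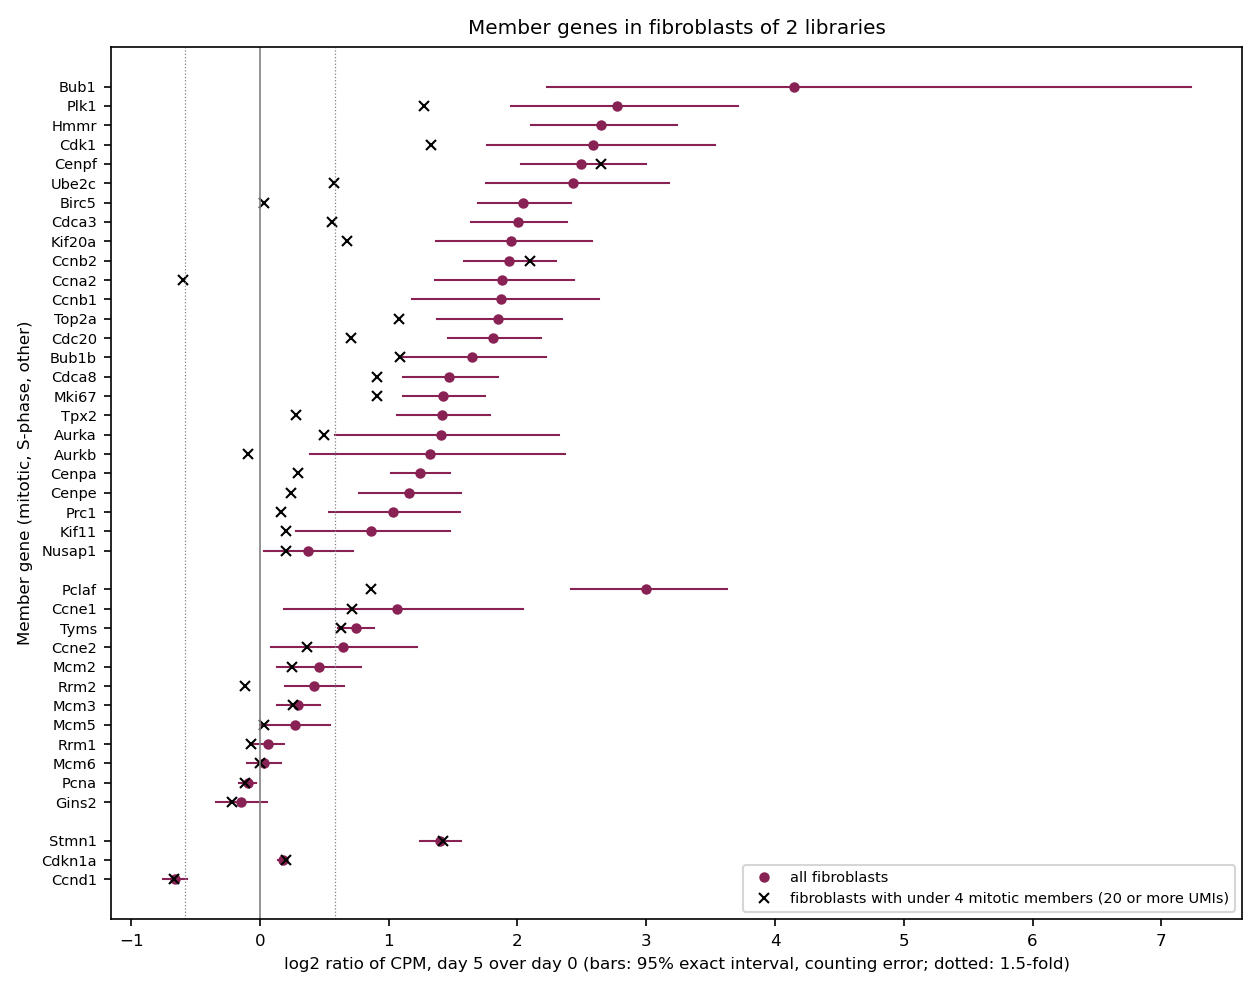
log2 ratio of CPM, day 5 over day 0, for the 40 genes in all fibroblasts (points with 95% exact intervals) and in fibroblasts with under 4 mitotic genes (crosses, where at least 20 UMIs were left); dotted lines mark 1.5-fold. The mitotic genes lie right of 0, from Nusap1 at 1.29-fold to Bub1 at 17.7-fold, and most of their crosses lie closer to 0.

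Among proteins of the chromosome and centromere, Cenpa (ENSMUSG00000029177, chr5:30666777-30674830 in mm10), which replaces histone H3 at centromeres, was at 3.53 CPM on day 0 and 8.35 CPM on day 5, 2.37-fold (2.03 to 2.78). Birc5 (chr11:117849251-117855743), a subunit of the chromosomal passenger complex that corrects wrong spindle attachments, went from 1.28 to 5.28 CPM, 4.13-fold (3.23 to 5.35). Mki67 (chr7:135689784-135716361), whose protein coats mitotic chromosomes and is the pathologists' Ki-67, went from 1.76 to 4.73 CPM, 2.69-fold (2.16 to 3.36). These levels came from few cells, since a Mki67 UMI was present in 0.328% of day 0 and 1.02% of day 5 fibroblasts. The kinetochore protein gene Cenpf was 5.64-fold and Top2a, which untangles DNA, was 3.6-fold higher. Of the cyclins and kinases, Ccnb2 (chr9:70407692-70421547), a B cyclin partner of Cdk1, went from 1.35 to 5.15 CPM, 3.82-fold (3.00 to 4.91). Cdk1 itself rested on 13 and 128 UMIs, and Plk1, the Polo kinase, on 13 and 145. Cdca3 (chr6:124829547-124833701), a factor of mitotic entry, went from 1.21 to 4.85 CPM, 4.01-fold (3.11 to 5.23).

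The checkpoint kinase gene Bub1 (chr2:127801122-127831865), which delays anaphase until chromosomes are attached, had the largest ratio, 17.7 (4.69 to 150), on 2 UMIs on day 0 and 58 on day 5. Nusap1 (chr2:119618298-119651244), a spindle microtubule binder, had the smallest, with 1.80 and 2.32 CPM, 1.29-fold (1.02 to 1.65). It was also the mitotic gene least tied to the mitotic-high cells. The spindle genes Hmmr (6.26-fold) and Kif11 (1.82-fold) lay between.

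In the S-phase group, Pclaf (chr9:65890237-65903266), which binds the Pcna clamp, stood apart with 0.449 and 3.58 CPM, 7.97-fold (5.35 to 12.4). Tyms (chr5:30058202-30073617), which makes thymidylate, went from 9.76 to 16.4 CPM, 1.68-fold (1.52 to 1.85); the replication cyclins Ccne1 and Ccne2 were 2.10-fold and 1.56-fold higher on few UMIs. Several other replication genes were near level. Pcna (chr2:132249162-132253314) was at 54.6 and 51.1 CPM, a ratio of 0.936 (0.894 to 0.979). Rrm1, the large subunit of ribonucleotide reductase, was at 15.7 and 16.5 CPM (ratio 1.05), the helicase subunit gene Mcm6 at 12.7 and 13 CPM (ratio 1.02), and Mcm3 at 7.67 and 9.43 CPM (ratio 1.23, 1.09 to 1.38). Gins2, a helicase cofactor, had the lowest ratio, 0.905 (0.787 to 1.04).

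The 3 other genes went separate ways. Stmn1, which destabilises microtubules and is abundant in dividing cells, was at 6.77 and 17.9 CPM, 2.64-fold higher on day 5 (2.36 to 2.95). Ccnd1 was at 30.8 and 19.5 CPM, 1.58-fold lower on day 5 (day 5 over day 0: 0.633, 0.593 to 0.676). Cdkn1a, the p21 gene, was at 214 and 241 CPM, a ratio of 1.13 (1.10 to 1.15). A Cdkn1a UMI was present in 58.2% of day 0 and 61.0% of day 5 fibroblasts.

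Few cells carried the mitotic RNA. The 85 mitotic-high fibroblasts of day 5 held 78.6% of all mitotic UMIs of that day's fibroblasts but 12% of the S-phase UMIs; the 9 of day 0 held 52.0% and 2.19%. These shares describe cells chosen by the same transcripts. They reached 98.4% for Hmmr, 96.6% for Bub1, 93.8% for Birc5 and 90.6% for Pclaf, and were 17.3% for Nusap1 and 4.57% for Pcna. Within the 85 cells Stmn1 stood at 309 CPM against 9.75 CPM in the other day 5 fibroblasts, Ccnd1 at 37.7 against 19.0 CPM, and Cdkn1a at 77.3 against 246 CPM. When mitotic-high cells were left out of both days, 14 of the 37 genes that kept at least 20 UMIs were at least 1.5-fold higher on day 5 and 2 were lower, with backgrounds of 9.65% and 7.74%. The summed ratio then was 1.44 (1.31 to 1.58) for the mitotic genes and 1.01 (0.984 to 1.05) for the S-phase genes, while Stmn1 kept a ratio of 2.68 (2.30 to 3.13) and Ccnd1 one of 0.631 (0.590 to 0.675).

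Promoters of some mitotic genes are shown next to those of some S-phase genes. RefSeq (GRCm38.p6, the assembly of mm10) gave a promoter for 32 of the 40 genes. The 250 bases before the start site were searched on both strands for the CHR element (TTTGAA) and the CCAAT box (CCAAT), which are known from cell cycle promoters and bound by the DREAM and B-MYB complexes and by NF-Y, and for E2F sites (TTTCCCGC, TTTGGCGC or TTCCCGCC, of which the first and last can overlap). Mki67 and Ccnb2 stand for mitotic promoters with both CHR and CCAAT, Pclaf for the S-phase gene with the largest ratio, Mcm6 for a replication gene near level, and Birc5 for a mitotic promoter with no match. Capitals mark the matches, which read ATTGG where a CCAAT box lies on the other strand.
Mki67 (chr7:135716380-135716629, minus strand): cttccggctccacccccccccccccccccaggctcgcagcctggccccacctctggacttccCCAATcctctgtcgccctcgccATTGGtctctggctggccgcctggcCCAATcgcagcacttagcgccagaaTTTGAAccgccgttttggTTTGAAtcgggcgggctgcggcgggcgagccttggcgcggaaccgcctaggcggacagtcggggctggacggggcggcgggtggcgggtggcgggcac
Ccnb2 (chr9:70421555-70421804, minus strand): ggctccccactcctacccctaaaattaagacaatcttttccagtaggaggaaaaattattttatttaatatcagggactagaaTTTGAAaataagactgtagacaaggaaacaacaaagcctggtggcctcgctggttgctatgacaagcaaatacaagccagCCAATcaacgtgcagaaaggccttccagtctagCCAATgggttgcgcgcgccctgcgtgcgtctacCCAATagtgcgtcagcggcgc
Pclaf (chr9:65890073-65890322, plus strand): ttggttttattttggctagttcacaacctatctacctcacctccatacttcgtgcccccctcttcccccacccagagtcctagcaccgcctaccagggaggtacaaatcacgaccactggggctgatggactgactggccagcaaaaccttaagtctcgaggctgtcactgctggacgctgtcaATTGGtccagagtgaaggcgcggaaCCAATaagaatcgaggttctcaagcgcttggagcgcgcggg
Mcm6 (chr1:128359706-128359955, minus strand): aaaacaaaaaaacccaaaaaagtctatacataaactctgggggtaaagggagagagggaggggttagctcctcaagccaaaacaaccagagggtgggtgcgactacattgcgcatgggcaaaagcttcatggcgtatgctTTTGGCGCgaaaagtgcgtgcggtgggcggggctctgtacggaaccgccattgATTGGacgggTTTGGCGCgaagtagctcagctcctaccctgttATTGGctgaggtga
Birc5 (chr11:117848987-117849236, plus strand): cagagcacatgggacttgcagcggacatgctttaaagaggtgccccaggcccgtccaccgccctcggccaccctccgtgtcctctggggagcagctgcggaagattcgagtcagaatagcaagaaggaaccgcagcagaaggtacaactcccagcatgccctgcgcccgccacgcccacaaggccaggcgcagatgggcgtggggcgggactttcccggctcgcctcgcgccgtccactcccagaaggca

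A CCAAT box was present in 19 of the 21 mitotic promoters found (90.5%) and in 8 of the 10 S-phase promoters (80.0%), beside 34.5% of all 27025 genes of the table and 36.1% of the 11567 genes with at least 20 UMIs in fibroblasts. Both CHR and CCAAT were present in 7 mitotic promoters (33.3%) and 1 S-phase promoter, beside 5.73% of all genes. An E2F site was found in none of the 21 mitotic and in 3 S-phase promoters (30.0%), beside 2.75% of all genes. Birc5 and Nusap1 held none of the motifs, although Birc5 was 4.13-fold and Nusap1 1.29-fold higher on day 5. A match is a run of letters and no binding was measured.

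The day 5 mitotic-high fibroblasts lay largely in a single expression cluster. Clusters were made without the genes of the cell cycle lists. Other genes that serve division, such as Cdkn3 and Knstrn, were not left out. Their part in the clusters was not tested. Of the 85 cells, 79 were in a cluster whose leading genes were Saa3, Ptx3 and then Ccl2, which mark inflammatory fibroblasts; 5.40% of its 1462 day 5 fibroblasts were mitotic-high (4.3 to 6.69%), at a median of 14673.5 UMIs. That cluster had 1675 cells of day 5 and 18 of day 0, so it belongs almost wholly to 1 library. That cluster was also left out, which takes cells almost only from day 5. Mitotic-high fibroblasts then were 6 of 7260 on day 5 and 9 of 5471 on day 0. The ratio of these shares was 0.502, on too few cells to show a difference in either direction. The ratio of the S-phase-high shares was 0.794. The number of genes at least 1.5-fold higher then was 2 of 39, against 9.79% of all genes, and 10 were at least 1.5-fold lower, against 7.42%. On day 0, 5 of the 9 mitotic-high fibroblasts were in the cluster led by Clic5 and Htra4, where the lining gene Prg4 and the mural gene Rgs5 were also among the leading genes, and 4 were in a cluster led by Efhd1 and Cd248. In the former cluster 4.63% of 108 day 0 fibroblasts were mitotic-high (1.52 to 10.5%) and none of 129 day 5 fibroblasts was, and 12 and 3 of them were S-phase-high. Over all cells of that cluster the mitotic-high share was 3.05% on day 0 and 0 on day 5 (upper limit of the ratio 0.973), and the S-phase-high share was 9.15% and 2.17%, a ratio of 0.238 (0.0574 to 0.746), so it went the opposite way to the fibroblasts as a whole. After thinning 4 of 164 and 0 of 180 cells there were mitotic-high (upper limit of the ratio 1.38) and none was S-phase-high. A lower S-phase-high share on day 5 was not particular to that cluster. Over all cells of the cluster led by Cntn1 the share was 1.53% on day 0 and 0.465% on day 5, a ratio of 0.303 (0.0814 to 0.974).

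Marker gates for fibroblast states, which need no clustering, placed the mitotic-high cells as follows. Inflammatory fibroblasts (at least 3 of Saa3, Ptx3, Cxcl5, Ccl2, Ccl7, Lcn2, Ccl20 and Slpi) were mitotic-high in 47 of 980 cells on day 5, 4.80% (3.54 to 6.33%), and in none of 40 on day 0, which allows up to 7.50%. Lining fibroblasts were so in 4 of 93 and 5 of 109 cells, 4.3% (1.18 to 10.6%) and 4.59% (1.51 to 10.4%). All 4 of day 0 lay in the Clic5-led cluster, and all 5 of day 5 lay in the Saa3-led cluster, to which 11 of the day 5 lining-gated cells belonged. After thinning 4 of 93 and 0 of 108 were mitotic-high. Progenitor fibroblasts (Pi16, Dpp4 and others) were so in 0 of 754 and 5 of 652, and all 5 were in the Saa3-led cluster. Fibroblasts that passed no state gate were mitotic-high in 5 of 4603 (0.109%, 0.0353 to 0.253%) and 30 of 7017 cells (0.428%, 0.289 to 0.610%), a ratio of 3.94 (1.51 to 13). After thinning the last pair was 0 of 4513 and 15 of 6794. Depth differed between states: the median was 14992.5 UMIs in day 5 inflammatory and 17048 in day 5 lining fibroblasts, against 9054 in those with no state gate.

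**Figure D3:**
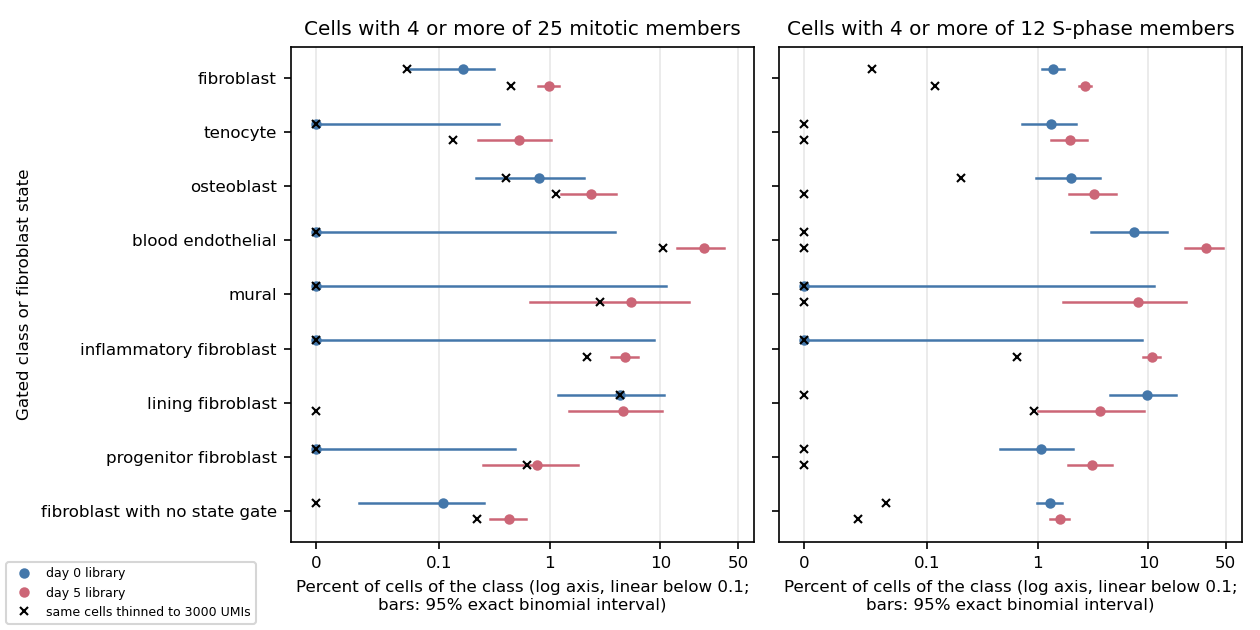
Percent of cells with 4 or more mitotic genes (left) or S-phase genes (right) in stromal classes and fibroblast states on day 0 and day 5 (points with 95% exact binomial intervals, on a log axis that is linear below 0.1); crosses give the same cells thinned to 3000 UMIs. Day 5 blood endothelial cells (24.6%) and inflammatory fibroblasts (4.80%) lie farthest right among the day 5 mitotic shares that rest on more than 5 cells.

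Beyond the cell cycle lists, the mitotic-high day 5 fibroblasts were compared with the other day 5 fibroblasts, and 1059 of 3161 genes were at least 1.5-fold higher and 479 at least 1.5-fold lower in them. Since 79 of the 85 cells were in the Saa3-led cluster and most of the others were not, this comparison is also largely one between clusters. The 10 largest ratios (at least 50 CPM in the higher group, chosen by the rule given with the processing) were in Cdkn3, Diaph3, Cenpm, Knstrn and Hist1h2ap, which themselves serve division, and in Il1rl1, Tnn, Nt5dc2, Slc16a3 and Crabp2. Il1rl1, the IL-33 receptor gene, stood at 52.4 against 1.60 CPM, with a UMI in 29 of the 85 cells. Crabp2, a carrier of retinoic acid, stood at 259 against 13.5 CPM (59 of 85 cells). Slc16a3, a lactate exporter gene, stood at 137 against 7.11 CPM, and Tnn, the matrix gene of tenascin W, at 66.0 against 3.23 CPM. The 10 largest differences in the other direction were in Saa1, Igfbp3, Abca8a, Lpl, Ccl19, Apod, Gpnmb, Rarres2, Apoe and Chad, from 7.79-fold lower (Saa1, 10.5 against 81.6 CPM) to 5.89-fold lower (Chad). Apoe, an abundant lipid carrier gene, stood at 317 against 1875 CPM. Inside the Saa3-led cluster all 20 genes kept their direction, and most ratios were closer to 1, with Saa1 and Ccl19 among the exceptions. The ratio of Il1rl1 was 8.69 there in place of 32.8, and 142 of its 147 UMIs in the other fibroblasts came from that cluster. Tnn had 10.5 in place of 20.5, Crabp2 6.08 in place of 19.2 and Slc16a3 5.80 in place of 19.2. Apoe was 2.99-fold and Lpl 2.64-fold lower there, in place of 5.91-fold and 6.71-fold.

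Inside the Saa3-led cluster, a comparison chosen after the values were seen, the 79 mitotic-high fibroblasts were low in the gene that leads the cluster. Saa3, a serum amyloid gene, stood at 235 CPM against 2485 CPM in the other 1383 fibroblasts, 10.6-fold lower, and 24 of the 79 cells had a UMI of it. Saa1 was 28.4-fold lower, and the lymphoid chemokine gene Ccl19 was 16.3-fold lower (50.1 against 816 CPM). The rest of the inflammatory list did not all go the same way. Lcn2 had a ratio of 0.175 (0.159 to 0.191), Ptx3 of 0.456 (0.429 to 0.485) and Ccl7 of 0.664 (0.635 to 0.693). The neutrophil-attracting Cxcl5 had 1.65 (1.55 to 1.76) and the monocyte-attracting Ccl2 1.10 (1.06 to 1.15). Ccl20 had 2.56 (1.81 to 3.58) and the protease inhibitor Slpi 3.37 (3.05 to 3.72). Of the fibroblast markers, Dcn (0.334), Col14a1 (0.499), Lum (0.538), Pdgfra (0.647) and Dpt (0.666) were lower. Mfap5 (1.18), Col3a1 (1.37) and Col1a1, a chain of type I collagen (1.91), were higher. Other markers moved with this comparison: the 10 tenocyte markers summed to 860 CPM in the mitotic-high and 536 CPM in the other cells, the 10 chondrocyte markers to 98.0 and 28.2 CPM, the 10 leukocyte markers, of which 6 had a UMI in the mitotic-high cells, to 3.31 and 4.89 CPM, and 13 genes of digestion stress to 7770 and 14130 CPM. Their part in the result was not tested.

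**Figure D4:**
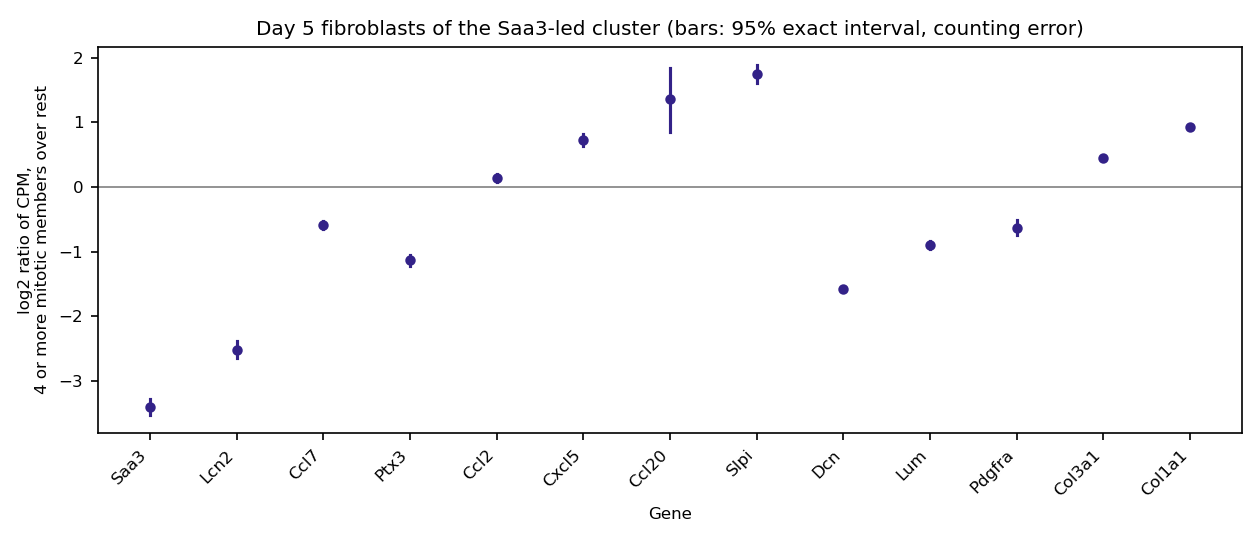
log2 ratio of CPM of inflammatory and fibroblast marker genes, 79 mitotic-high over 1383 other day 5 fibroblasts of the Saa3-led cluster (points with 95% exact intervals for counting error). Saa3 (ratio 0.0944) and Lcn2 (0.175) lie far below 0 and Slpi (3.37) and Ccl20 (2.56) lie above it.

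On day 5 blood endothelial cells had a higher mitotic-high share than fibroblasts, tenocytes and osteoblasts, with an interval that overlapped none of theirs. None of 94 cells was mitotic-high on day 0, which allows up to 3.19%, and 14 of 57 were on day 5, 24.6% (14.1 to 37.8%); after thinning 0 of 92 and 6 of 57 were. Their median depth was 7186.5 UMIs on day 0 and 12056 on day 5. S-phase-high cells were 7 of 94 and 19 of 57, and after thinning 0 of 92 and 0 of 57. The sums rest on few cells. Ccnb2 had 0 UMIs on day 0 and 96 on day 5 (103 CPM), 29.0-fold higher against a floor of 3 UMIs. Birc5 had 0 and 95, 28.7-fold higher against that floor. The exact lower limits of these ratios were 23.2 and 22.9. Stmn1 went from 9.46 to 250 CPM, 26.4-fold (13.2 to 61.9). The 25 mitotic genes together went from 22.5 to 922 CPM and the 12 S-phase genes from 195 to 413 CPM, while Ccnd1 was at 203 and 212 CPM. In this small class 19.0% of all genes tested were at least 1.5-fold higher on day 5 and 21.9% at least 1.5-fold lower.

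In osteoblasts 4 of 502 cells were mitotic-high on day 0 and 13 of 555 on day 5, 0.797% (0.218 to 2.03%) and 2.34% (1.25 to 3.97%), with overlapping intervals. Most of them had Dmp1 or Ifitm5, genes of mineralising osteoblasts: 3 of 218 and 12 of 292 such cells, against 1 of 284 and 1 of 263 cells without. This split used unthinned counts, so deeper cells pass it more readily. After thinning the mitotic-high shares on day 0 were 0.467% with either gene and 0.356% without. On day 5 they were 1.78% and 0.405%. The mitotic genes of all osteoblasts summed to 61.8 and 134 CPM, 2.17-fold (1.90 to 2.49). Their S-phase genes summed to 149 and 128 CPM, a ratio of 0.859 (0.773 to 0.954). Of all genes tested in osteoblasts 7.91% were at least 1.5-fold higher on day 5 and 5.46% at least 1.5-fold lower. Rrm2, the small subunit of ribonucleotide reductase, was at 9.34 and 3.57 CPM there, 2.61-fold lower on day 5. Tenocytes had no mitotic-high cell among 1062 on day 0 and 8 among 1526 on day 5, 0.524% (0.227 to 1.03%), of which 6 lay in the Saa3-led cluster. Their mitotic genes summed to 9.81 and 44.9 CPM, 4.58-fold (3.74 to 5.64), and their S-phase genes to 114.5 and 120.5 CPM; of all genes tested in tenocytes 10.3% were at least 1.5-fold higher and 7.86% lower. Mural cells (0 of 31 and 2 of 37) and muscle satellite cells (0 of 4 and 1 of 14) were too few to compare.

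Other genes of the cell cycle were read from wider lists in fibroblasts. Of 40 further mitotic genes 27 were at least 1.5-fold higher on day 5 and none was as much lower, with a median log2 ratio of 1.03, beside 10.3% higher and 7.68% lower over all genes. In fibroblasts with under 4 mitotic genes 6 of the 30 that kept at least 20 UMIs were higher, beside 9.65% of all genes, and 1 was lower. The checkpoint kinase gene Ttk (7.34-fold), the kinesin Kif2c (7.34-fold) and the kinetochore gene Nuf2 (6.65-fold) were the highest, and Hmgb2 (0.982), Cdca2 (0.984) and Kif20b (1.03) the lowest. Of 29 measured S-phase genes (of 30) 6 were higher and 1 lower, with a median of 0.16. Tk1, thymidine kinase (5.00-fold), the methylation reader Uhrf1 (3.77-fold) and the helicase Hells (2.63-fold) stood highest and Exo1 (0.480), Cdc6 (0.682) and Tipin (0.723) lowest. The counts in the remaining lists were near the 10.3% of all genes. Of 14 genes that control entry from G1, E2f2 was the single gene past 1.5-fold (1.90, 0.906 to 4.33) and E2f1 was the lowest (0.772). Of 16 arrest genes, the CDK inhibitors Cdkn2b (2.74-fold, 0.691 to 1.89 CPM) and Cdkn2a (1.97-fold on 9 and 29 UMIs) were past 1.5-fold, Gadd45b was at 1.48 and Mdm2 was lowest at 0.996. Of the 29 day 5 UMIs of Cdkn2a 8 were in the 85 mitotic-high cells, and without those cells Cdkn2b alone was past 1.5-fold (2.46).

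In the myeloid library of day 9, for which no day 0 myeloid library was analysed here, 568 of 5945 cells were mitotic-high, 9.55% (8.82 to 10.3%). Classes were compared inside this library. Osteoclast-like cells (at least 4 of 9 genes such as Acp5, Ctsk and Dcstamp) were mitotic-high in 234 of 797 cells, 29.4% (26.2 to 32.7%), and S-phase-high in 310, 38.9%. They were also the deepest class, with a median of 24362 UMIs, and after thinning their mitotic share was 11.0% (8.92 to 13.4%). Of the 234 mitotic-high osteoclasts 148 were in an unnamed cluster led by Stmn1 and Cdk1; without that cluster, left out with the data in view, the share was 86 of 479, 18.0% (14.6 to 21.7%), and the S-phase-high share 28.6%. Macrophages were mitotic-high in 132 of 2805 cells, 4.71% (3.95 to 5.56%), and 3.48% after thinning, at a median of 5881 UMIs. They were S-phase-high in 199 cells, 7.09% (6.17 to 8.11%). Before and after thinning the intervals of osteoclasts and macrophages did not overlap. Of all mitotic-high day 9 cells 16.2% were among the cells with the highest doublet scores, against 6.73% of all cells. Without those the macrophage share was 3.88%, and the osteoclast share was not recomputed.

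In the neutrophil and monocyte classes most mitotic-high cells carried genes of immature cells. Of the 84 cells that passed the neutrophil gate despite the Ly6G- sort, 38 were mitotic-high, 45.2% (34.3 to 56.5%). With at least 2 of Mpo, Prtn3 and Elane, granule genes made in marrow precursors, 24 of 26 were, at a median of 22672 UMIs; with fewer, 14 of 58 were, at 5553.5 UMIs. After thinning 20 of 26 and 11 of 46 were. The same split of the 352 monocytes (26 mitotic-high, 7.39%) gave 18 of 24 and 8 of 328, and after thinning 15 of 24 and 4 of 283. In both classes the split itself used unthinned counts, so deeper cells pass it more readily. Monocytes with neither gene set at 4 had medians of 9546 and 5426 UMIs on its sides. Another 427 cells passed both the monocyte and the macrophage gate and were not split. Of these, 5 were mitotic-high and S-phase-high, and 9 were mitotic-high alone. NK and T cells were mitotic-high in 29 of 191 cells (15.2%, 10.4 to 21.1%), conventional dendritic cells in 9 of 128 and migratory dendritic cells in 2 of 87 (2.30%, 0.280 to 8.06%). Cells that passed no gate were so in 76 of 988. B cells and mast cells numbered 16 each, with 1 mitotic-high cell in both.

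**Figure D5:**
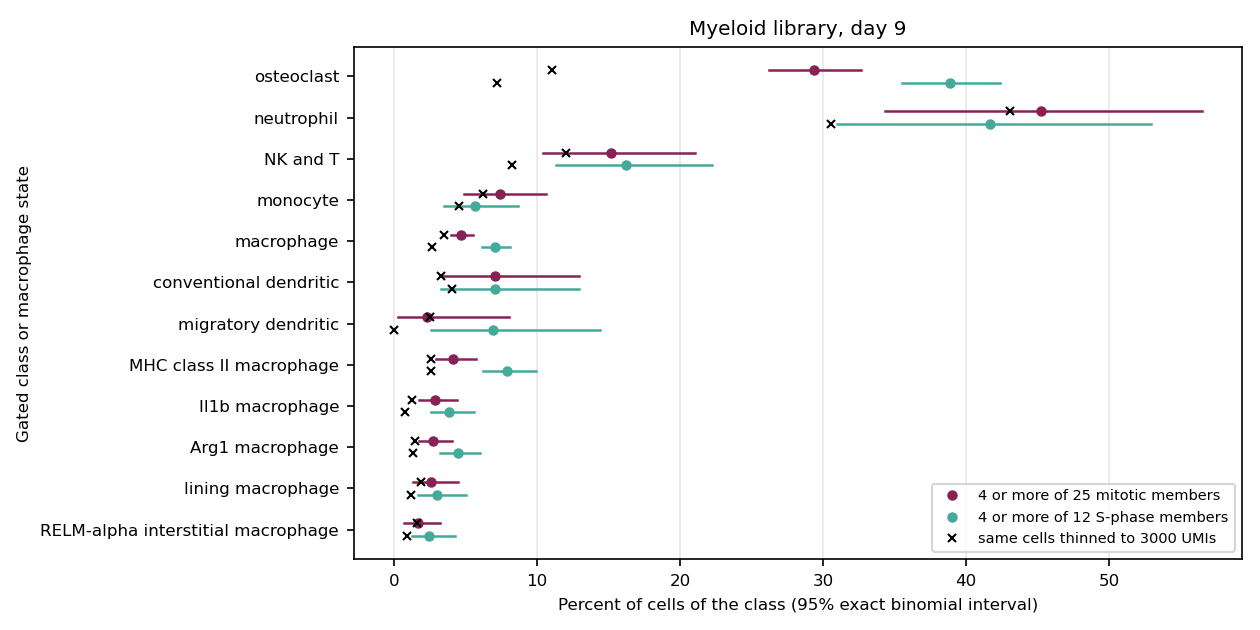
Percent of cells with 4 or more mitotic or S-phase genes in myeloid classes and macrophage states of the day 9 library (points with 95% exact binomial intervals; crosses after thinning to 3000 UMIs). Neutrophil-gated cells (45.2%) and osteoclasts (29.4%) lie far above macrophages (4.71%), and RELM-alpha interstitial macrophages are lowest among the 5 states drawn (1.65%); the interferon state is not drawn.

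Among macrophage states, which overlap since a cell may pass several gates, the mitotic-high share was 1.65% (0.713 to 3.22%, 8 of 486) in RELM-alpha interstitial cells (Retnla, Lyve1, Cd163), 2.60% (12 of 462) in lining cells (Vsig4, Gpr34) and 4.14% (2.90 to 5.71%, 35 of 845) in cells with MHC class II genes. Arg1 macrophages (24 of 875, 2.74%) and Il1b macrophages (20 of 699, 2.86%) lay between the last pair, and the interferon state had 1 of 76, 1.32% (0.0333 to 7.11%). The intervals of these neighbours overlapped. Macrophages that passed no state gate had 60 of 561, 10.7% (8.26 to 13.6%). Of the 132 mitotic-high macrophages, 48 were in the same unnamed cluster and 33 in a cluster led by Aqp1, Cd163 and Lyve1. In the latter 8.68% of 380 macrophages were mitotic-high (6.05 to 12%), more than in the RELM-alpha state that shares Lyve1 and Cd163 with it; of its cells that passed the RELM-alpha gate 3 of 183 were, and of those that passed no state gate 19 of 114. Without the unnamed cluster the macrophage share was 3.15%. Osteoclasts were split by the fusion genes Ocstamp, Dcstamp and Atp6v0d2. With 0 or 1 of these genes 118 of 311 were mitotic-high, 37.9% (32.5 to 43.6%), and with 2 or 3 of them 116 of 486, 23.9% (20.1 to 27.9%), although the latter were deeper (medians of 20485 and 28117 UMIs). After thinning the shares were 16.6% and 7.45%.

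The genes with the most UMIs in the myeloid library were Cdkn1a, Pcna, Stmn1, Ccnd1 and Top2a. Cdkn1a was at 378 CPM in macrophages, 580 CPM in monocytes, 211 CPM in neutrophil-gated cells and 89.4 CPM in osteoclasts. Pcna varied less, from 125 CPM in osteoclasts and 151 CPM in macrophages to 259 CPM in neutrophil-gated cells. Stmn1 was at 108 CPM in macrophages, 139 CPM in osteoclasts and 331 CPM in neutrophil-gated cells. Across these 3 classes Ccnd1 took the opposite order, with 105 CPM in macrophages, 19.9 CPM in osteoclasts and 13.3 CPM in neutrophil-gated cells, and it was at 245 CPM in conventional dendritic cells. Top2a was at 43.2 CPM in macrophages, 85.8 CPM in osteoclasts and 355 CPM in neutrophil-gated cells, close to the levels of Mki67 in the same classes (33.6, 63.5 and 350 CPM). The mitotic-high cells held 86.5% of the mitotic UMIs of macrophages and 96.2% of those of osteoclasts, shares that describe cells chosen by these same transcripts. They held 45.1% and 77.0% of the S-phase UMIs.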

How the data were processed

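The values are raw UMI counts per gene and cell barcode. Per the file headers the authors made the deposited counts with Cell Ranger 6.0.1; per the labels' protocols reads of 10x 3' libraries were aligned to the prebuilt mm10 reference of 10x, and the submitters' processing notes also name Seurat 4.3.0 without its role. Totals per library were 77842586, 122224428 and 69430907. A cell was placed in a class by the number of markers with a UMI after thinning to at most 5000 UMIs; these gate numbers were chosen after the marker counts per cell were seen. Clusters (Leiden, resolution 1, scanpy 1.11.5) left out all cell cycle lists. Scrublet called 0, 0 and 1 doublets and so did not work; an alternative removed the highest scores, at 0.8% per 1000 barcodes.

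Shares have Clopper-Pearson intervals, CPM values exact Poisson intervals and ratios exact conditional intervals, at 95%. A share with 0 cells is limited by 3 cells. On fibroblast sums simulated with known folds, 50 of 50 genes at 1.5-fold had the right direction and the true ratio lay in the interval for 45 of 50. The simulation drew UMIs independently. It cannot show how the intervals fare where few cells hold most UMIs, as for the mitotic genes. Gene positions are from GENCODE vM21 for the same assembly. Alternatives used edgeR 4.0.16 and DESeq2 1.42.0 for scaling factors only.

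Full values go to the 5 genes with the highest day 5 CPM and the largest and smallest ratio in the mitotic and S-phase groups, to Stmn1, Ccnd1 and Cdkn1a, and to the 5 highest on day 9; of wider lists to the 3 highest and 3 lowest ratios; of other genes to the 10 largest ratios in each direction. The genes, lists and rules were chosen with earlier results of these data known.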

Additional observations from a re-analysis of the deposited data

Results flagged for a closer look

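In 4 cases a gene was higher on day 5 in a stromal class and lower in another, with intervals on opposite sides of 1 in libraries of 1 per day; the difference between the classes was not tested. Rrm1 had a ratio of day 5 over day 0 of 0.793 in tenocytes and 2.65 in blood endothelial cells. Rrm2 had 1.34 in fibroblasts and 0.383 in osteoblasts. Cdkn1a had 1.13 in fibroblasts and 0.858 in tenocytes, and 1.56 in osteoblasts, again opposite to tenocytes.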

How the results depend on the processing

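The results below, apart from the osteoclast shares, were recomputed under changed cell filters, doublet removal, other member minimums, thinning, gates, clusters and scaling. The ratio of mitotic-high fibroblast shares (5.94) lay between 4.90 and 6.80 under all of these alternatives. It was 0.502 without the Saa3-led cluster, on too few cells to show a difference. Leaving out the cluster was chosen after the data were seen and removes cells almost only from day 5. The ratio for S-phase genes (1.95) was 1.28 with at least 3 genes and 4.40 with at least 6, and 0.794 without that cluster. The ratio over all 40 genes (1.18) was 1.05 with at least 3 genes, 2.68 with at least 6, 2.20 and 1.42 with cells thinned to 3000 and 5000 UMIs, 1.87 with 37 genes and 0.870 without the cluster. The mitotic-high share of macrophages (4.71%) was 3.88% without the highest doublet scores, 5.70% with at least 3 genes, 3.48% after thinning to 3000 UMIs, 2.98% with clusters for gates and 3.15% without the unnamed cluster. Their S-phase-high share (7.09%) was 12.2% with at least 3 genes, 4.06% with at least 6, 2.68% after thinning to 3000 UMIs, 4.49% with clusters and 4.80% without the unnamed cluster. Without that cluster the shares of osteoclasts (29.4% and 38.9%) were 18.0% and 28.6%. The number of genes at least 1.5-fold higher in fibroblasts (29) was 14 without mitotic-high cells and 2 without the Saa3-led cluster; it was 21 of 33 measured after thinning, 24 with the mean CPM per cell, and 28 or 29 under the other alternatives.

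A ratio was counted as turned only if it had been at least 1.5-fold higher or lower in all fibroblasts. By this count the ratios of Ccna2 and Aurkb turned to 0.661 and 0.939 without mitotic-high cells. Without the Saa3-led cluster 39 ratios were measured, and ratios nearer to 1 at the start were not counted. Of those that had been at least 1.5-fold higher, 21 turned below 1: Mki67 0.452, Top2a 0.976, Cenpa 0.940, Cenpe 0.753, Ube2c 0.617, Birc5 0.456, Ccnb1 0.329, Ccnb2 0.390, Ccna2 0.564, Cdc20 0.888, Cdca3 0.459, Tpx2 0.802, Aurka 0.933, Aurkb 0.754, Kif11 0.848, Kif20a 0.735, Prc1 0.804, Hmmr 0.576, Pclaf 0.538, Ccne1 0.823 and Ccne2 0.975. These ratios are given without intervals, and the cause was not tested.

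No paired analysis was possible because each group held 1 library. Depth limits the S-phase shares most, since thinning leaves 3 and 10 such fibroblasts, and classes of under 100 cells have wide intervals.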

Other observations

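Genes that control entry into the cycle were also compared inside the Saa3-led cluster, between its 79 mitotic-high and 1383 other day 5 fibroblasts, a comparison chosen after the data were seen. Cdk6 stood at 31.4 against 9.23 CPM, a ratio of 3.41 (2.58 to 4.45), E2f1 at 14.5 against 4.80 CPM and Cdk4 at 191 against 114 CPM. Cdkn2c, an inhibitor of Cdk4 and Cdk6, was also higher in the mitotic-high cells, with a ratio of 3.62 (2.58 to 5.01). Cdkn1c, which encodes p57, had a ratio of 0.476 (0.395 to 0.569), the antiproliferative gene Btg2 of 0.546 and Myc of 0.521.

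The naming rule for other genes was applied to macrophages and osteoclasts as well, after the data were seen. In mitotic-high macrophages the largest ratios were in Knl1 (52.0 against 0.266 CPM) and Cenpm, which are kinetochore genes. Lyve1 (6.64-fold lower), Arg1 (3.80-fold lower, 100 against 381 CPM) and Apoe (3.73-fold lower, 1454 against 5430 CPM) were among the 10 largest differences in the other direction. In mitotic-high osteoclasts the histone gene Hist1h2ap stood at 248 against 12.8 CPM. The 10 genes that were lowest there were led by Clec4n (5.60-fold lower). Itgb3, the integrin of the sealing zone (5.07-fold lower), the receptor gene Oscar (4.31-fold lower), Spp1 (3.94-fold lower) and Ckb (2.39-fold lower) were among them. The others were Pla2g7, St8sia6, Myo1d, Mt3 and Gask1b.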
